A study of Rattus norvegicus with 8 samples.

Results

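Genes of the Notch pathway and the Id factors were followed in cultured astrocytes of Sprague Dawley rat pups that had been exposed to melanoma. The 10 genes were set by symbol and comprised the receptors Notch1 and Notch2, the ligand Dll1, the target genes Hes1, Hes5 and Hey1, and the factors Id1, Id2, Id3 and Id4. All 10 were found among the 28546 gene entries of the count table, and 9 of them were among the 14445 entries with enough counts to be tested. Hes5 was the exception, with 3 counts in all.

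The design held 3 groups, 8 RNA-seq libraries and no astrocytes without melanoma exposure. For control (n = 2) the 12-273 BM melanoma cells expressed a scrambled hairpin. For sh-APP (n = 3) these cells had the amyloid precursor gene targeted by a hairpin, and for anti-Abeta (n = 3) the scrambled-hairpin setting was combined with an antibody against amyloid beta. The labels call the exposure a co-culture in one field and a period of 24 h in melanoma-conditioned medium in another, and the sources used here do not settle which. One hairpin is named, and whether the replicates were independent cultures is not said, so the p-values below cover no more than the spread among these 8 libraries.

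Notch receptors are cut when a ligand of the Delta or Jagged family on a neighbouring cell binds them, first by an ADAM protease and then by gamma-secretase, the enzyme that also releases amyloid beta from its precursor. The freed intracellular part joins the DNA-binding protein RBPJ and switches on genes of the Hes and Hey families, which are repressors of the basic helix-loop-helix (bHLH) class. Id proteins have the helix-loop-helix but no DNA-binding part, and they hold E proteins and other bHLH factors away from DNA. Their genes are typical targets of bone morphogenetic protein (BMP) signals carried by Smad proteins, and both systems are known for keeping neural precursors undifferentiated and for favouring astrocytes over neurons.

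The promoters of the Hes and Id genes are shown because these members are known targets of the 2 pathways. Sites farther from the start lie outside the windows. Each line gives the 250 bases before the RefSeq gene start, 5′ to 3′ on the gene's strand, from the rat assembly GRCr8, which is later than the rn6 build behind the counts. Capitals mark any match, on either strand, to TGGGAA (the core of the RBPJ site), GTGGGAA (a longer form that contains the core), GGCGCC (a GC-rich Smad site), CAGAC (the Smad box), CACGTG (an E-box), CACGAG or CACGCG (sites bound by Hes and Hey proteins) or TATAA (the TATA box, added to the search after the values were seen). The windows are chr11:84213046-84213295 on the minus strand for Hes1, chr5:170804327-170804576 on the plus strand for Hes5, chr3:161671314-161671563 on the plus strand for Id1, chr6:47470996-47471245 on the minus strand for Id2, chr5:153656041-153656290 on the plus strand for Id3 and chr17:16598294-16598543 on the minus strand for Id4.
Hes1: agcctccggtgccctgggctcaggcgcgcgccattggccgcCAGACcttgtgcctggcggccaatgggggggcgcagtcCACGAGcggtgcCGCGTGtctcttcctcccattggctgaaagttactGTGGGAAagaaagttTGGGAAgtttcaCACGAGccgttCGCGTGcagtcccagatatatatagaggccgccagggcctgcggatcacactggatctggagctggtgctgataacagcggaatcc
Hes5: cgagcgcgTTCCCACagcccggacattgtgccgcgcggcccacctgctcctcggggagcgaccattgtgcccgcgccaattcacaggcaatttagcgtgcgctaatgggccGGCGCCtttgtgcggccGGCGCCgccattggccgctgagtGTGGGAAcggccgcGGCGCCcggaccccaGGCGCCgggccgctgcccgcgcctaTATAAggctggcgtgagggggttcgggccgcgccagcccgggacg
Id1: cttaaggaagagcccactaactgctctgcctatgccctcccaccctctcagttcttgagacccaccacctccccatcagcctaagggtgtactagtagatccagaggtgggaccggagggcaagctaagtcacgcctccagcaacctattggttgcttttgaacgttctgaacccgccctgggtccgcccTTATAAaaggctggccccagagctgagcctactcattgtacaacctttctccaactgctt
Id2: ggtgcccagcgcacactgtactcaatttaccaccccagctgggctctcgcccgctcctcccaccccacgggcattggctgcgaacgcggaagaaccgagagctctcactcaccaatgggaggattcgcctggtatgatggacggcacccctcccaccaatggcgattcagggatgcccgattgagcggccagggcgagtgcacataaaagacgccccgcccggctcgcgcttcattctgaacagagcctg
Id3: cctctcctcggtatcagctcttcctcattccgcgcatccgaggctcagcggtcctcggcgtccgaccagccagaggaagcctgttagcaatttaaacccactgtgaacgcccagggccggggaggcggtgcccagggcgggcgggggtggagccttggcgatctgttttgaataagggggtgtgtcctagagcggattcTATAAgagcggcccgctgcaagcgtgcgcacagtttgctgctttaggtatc
Id4: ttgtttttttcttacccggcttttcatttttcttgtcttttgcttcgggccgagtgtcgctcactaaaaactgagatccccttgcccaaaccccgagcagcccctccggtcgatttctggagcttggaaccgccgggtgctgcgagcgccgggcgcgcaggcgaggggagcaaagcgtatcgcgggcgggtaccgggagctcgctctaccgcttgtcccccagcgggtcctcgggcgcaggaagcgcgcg

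Of the 10 members, 9 had a promoter in the RefSeq table, and Hey1 had none. The longer RBPJ letters were in the windows of Hes1, Hes5 and Dll1, and in 5.27% of all 33469 promoters of that length. The core was in the same 3 members and in 22.1% of all promoters. In Hes1 the longer match began 124 bases before the start and the other core match 109 bases before it. Of the 4 Id windows, none held the RBPJ, Smad, E-box or Hes letters, which says only that these letters are not in these 250 bases. TATAA was in the windows of Id1 and Id3 and not in those of Id2 and Id4, and 24.0% of all promoters held it. Variants of these letters were not searched. This motif was added after the values were seen, so the split cannot bear on the Id levels, and a link to them was not tested. The Id1 window had 5 CG steps and 54.8% G or C, those of Id2 and Id3 19 CG steps each with 62.8% and 61.2% G or C, and that of Id4 28 CG steps and 62.8% G or C.

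Library totals ran from 34250464 to 47831595 per library, and levels are given as CPM (counts scaled to a common library size with TMM factors). They are not divided by transcript length, so a level is compared between libraries and not between genes. The composition factors of the scaling were 0.90 to 0.92 in control, 1.04 to 1.06 in sh-APP and 0.99 to 1.03 in anti-Abeta. Without them the log2 fold changes of all genes against control would shift by a median of 0.20 in sh-APP and 0.15 in anti-Abeta. The library numbers in the labels are 1 and 2 for control, 4 to 6 for anti-Abeta and 7 to 9 for sh-APP, so anything that goes with that order and the group cannot be told apart. Replicate 2 of anti-Abeta differed most from the others of its group, at a chi-square per degree of freedom of 30.9 and 45.8 against 17.1 to 20.4 for the other pairs. The rat App gene, checked first, had 573 ± 19.8 CPM in control, 612 ± 31.7 in sh-APP and 539 ± 32.3 in anti-Abeta (SD), and passed the test in neither arm, but the hairpin was in the melanoma cells and these values do not measure its effect.

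The astrocyte label was checked against 12 markers, whose summed level was 15853 to 16210 CPM in control, 17146 to 19657 in sh-APP and 13999 to 14980 in anti-Abeta. Only Gjb6 of that list was under 1 CPM in every library. The sum hides opposite changes, with 8 of the 12 called higher and 1 lower in sh-APP, and 4 higher and 3 lower in anti-Abeta. From control to sh-APP, Gfap went from 2911 ± 19.4 to 6532 ± 893 CPM and Gja1 from 3682 ± 242 to 2146 ± 160. Of the 7 oligodendrocyte lineage markers, Mbp and Mag were under 1 CPM in every library, but Olig1, a bHLH factor of that lineage, stood at 1819 ± 58.0 CPM in control and Olig2 at 473 ± 3.43. Endothelial markers are of interest because Notch and Id genes are also active in vessels. They summed to 6.08 to 6.67 CPM in control, 8.56 to 10.04 in sh-APP and 6.97 to 8.71 in anti-Abeta. Of the 4 tested, 2 were called higher in sh-APP and 0 lower. Egfl7 went from 2.55 CPM in control to 6.52 in sh-APP and Flt1 from 3.52 to 2.47. Cldn5 was at 0 in every group. Pericyte and smooth muscle markers summed to 10.93 to 12.15 CPM in control, 14.83 to 16.05 in sh-APP and 11.60 to 13.39 in anti-Abeta. Of the 5 tested, 1 was called higher in sh-APP and 0 lower. Whether these vessel lists have a part in the Notch and Id changes was not tested. Of the 7 microglia markers in the table, Aif1, Cx3cr1, P2ry12, Tmem119, Csf1r and Ptprc stayed under 1 CPM in every library, as did Mlana, Tyr, Dct and Tyrp1 of the 6 melanocyte markers. Cd68 of the microglia list, a lysosomal protein, stood at 13.3 ± 2.35 CPM in control, 10.4 ± 1.62 in sh-APP and 16.1 ± 4.83 in anti-Abeta. Mitf of the melanocyte list, a transcription factor, made up most of that list's sum, with 41.5 ± 2.52 CPM in control, 27.0 ± 1.83 in sh-APP, where it was called lower, and 32.4 ± 7.01 in anti-Abeta. In bulk RNA, fewer cells of a type and less RNA per cell cannot be told apart.

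Notch1 and the Notch target Hey1 rose in sh-APP and in anti-Abeta, and Id2 and Id4 fell in both. Id3 rose in sh-APP, and the tests of Notch2, Dll1, Hes1 and Id1 against control were not passed in either arm. The calls were 5 of the 9 tested members in sh-APP against control (3 higher, 2 lower), where 53.7% of all tested genes were called (25.8% higher, 27.9% lower), and 4 of 9 in anti-Abeta against control (2 higher, 2 lower), where 29.2% were (12.7% higher, 16.6% lower). The libraries of sh-APP and control did not overlap for 6 of the 9 members (4 higher, 2 lower), beside 70.7% of all tested genes (35.7% higher, 35% lower). Those of anti-Abeta and control did not overlap for 7 of the 9 (4 higher, 3 lower), beside 54.9% (27.9% higher, 27% lower). A share of 5 in 9 is near the share of all genes, so the count in sh-APP is no result about the members as a set. In anti-Abeta the count of called members was 1 without control replicate 1 and 2 without control replicate 2, and over all tested genes it was 439 and 2431 instead of 4223. The median log2 fold change of the 9 was 0.15 in sh-APP and 0.11 in anti-Abeta, beside 0.03 over all tested genes in each. The 2 arms share their control libraries.

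**Figure D1:**
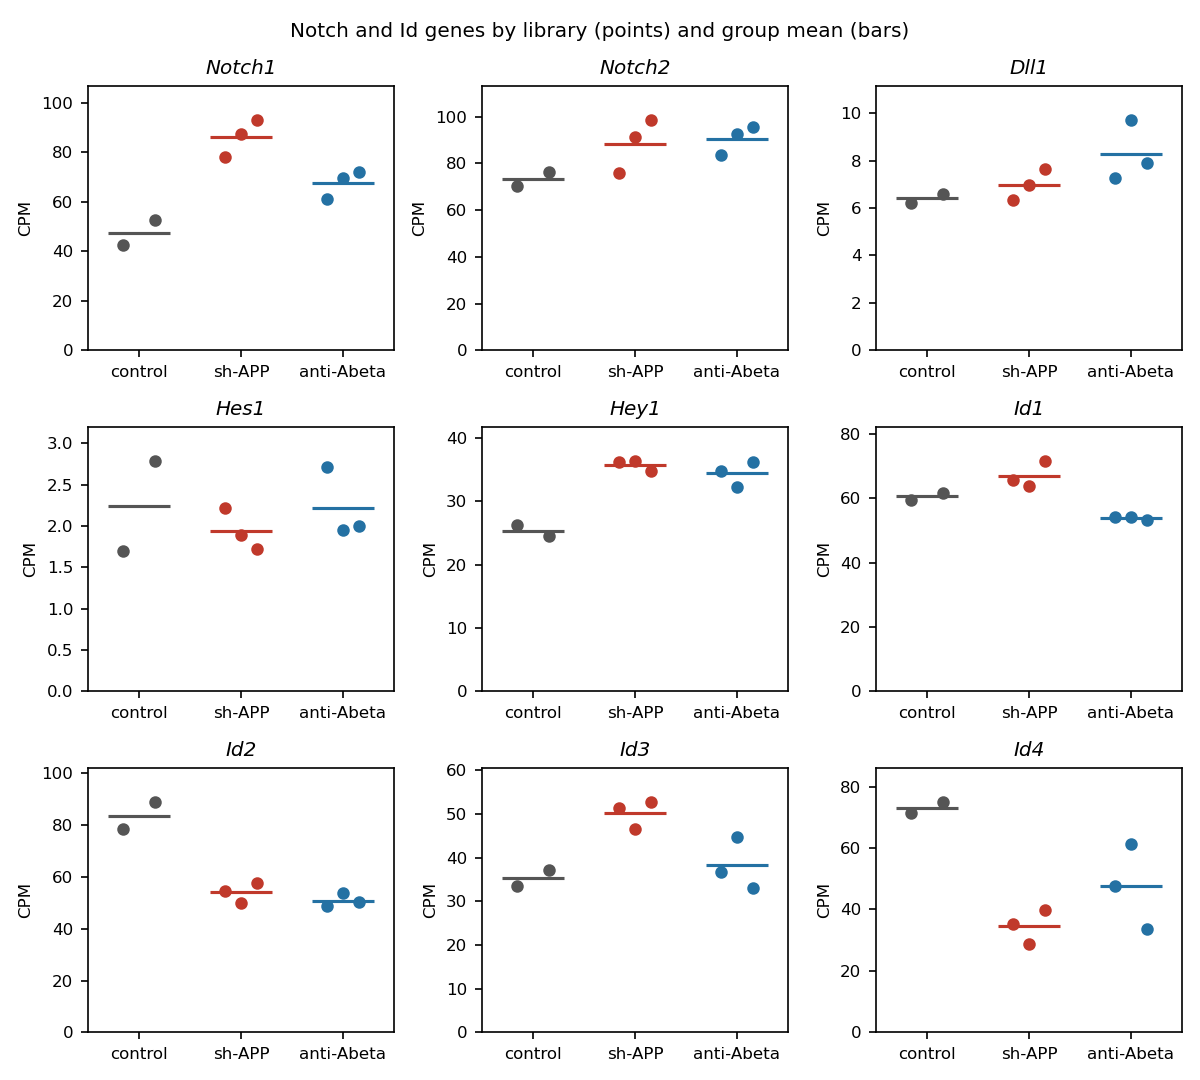
Level of each tested member in CPM (vertical axis, from 0) in the 8 libraries (points) of the 3 groups, with the group mean as a bar. Notch1 lies lowest in control and highest in sh-APP, Id2 is at 78.5 CPM or more only in control, and the 3 anti-Abeta points of Id4 spread from 33.8 to 61.4 CPM.

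Notch1, the receptor best known from neural precursors, had 42.6 and 52.5 CPM in the control libraries, 78.0, 87.2 and 92.8 with sh-APP, and 61.3, 69.8 and 72.0 with anti-Abeta, each series in the order of the replicate numbers. The 3 groups did not overlap, with control lowest and sh-APP highest. Against control the fold change on the log2 scale was 0.85 ± 0.11 (SE) for sh-APP (adjusted p = 5.73e-05, edgeR's quasi-likelihood test) and 0.51 ± 0.11 in anti-Abeta (adjusted p = 0.00735). The call in sh-APP held in all 19 alternative settings. In anti-Abeta it was lost without control replicate 1 (log2 fold change 0.36, adjusted p = 0.124).

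Notch2, the second receptor of the set, had 70.3 and 76.4 CPM in control, 75.9, 91.2 and 98.4 in sh-APP, and 83.5, 92.6 and 95.8 in anti-Abeta. All 3 anti-Abeta libraries lay above control, and sh-APP replicate 1 lay within the control range. Its log2 fold change was 0.27 ± 0.11 in sh-APP and 0.30 ± 0.11 in anti-Abeta (adjusted p = 0.0520 and 0.0523, edgeR), both just outside the threshold of 0.05. Notch2 passed in sh-APP without sh-APP replicate 1 (adjusted p = 0.00750) or anti-Abeta replicate 2 (0.0431). In anti-Abeta it passed without replicate 1 (0.0256) or 3 (0.0472) of sh-APP, without the first anti-Abeta replicate (0.0492) and with DESeq2 (0.0445). With library totals alone it passed in both arms (adjusted p = 0.00152 and 0.00557), so whether Notch2 is called rests on the settings.

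The count of Notch1 reads per Notch2 read does not depend on the scaling of the libraries. It was 0.606 and 0.687 in control, 1.03, 0.957 and 0.944 in sh-APP, and 0.735, 0.753 and 0.752 in anti-Abeta. The ratio was lowest in both control libraries and highest in the sh-APP libraries, with no overlap. No test was made of this ratio or of those of the Id factors. How many pairs of tested genes separate the groups in this way was not worked out.

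Dll1, a Delta-type ligand, had 6.23 and 6.59 CPM in control, 6.32, 6.97 and 7.65 in sh-APP, and 7.28, 9.69 and 7.91 in anti-Abeta. The sh-APP values overlapped control, and those of anti-Abeta lay above it. The log2 fold changes were 0.12 ± 0.17 and 0.37 ± 0.17 (adjusted p = 0.582 and 0.127, edgeR), the latter passing only with library totals alone (adjusted p = 0.0340). Dll1 overlaps Fam120b on the chromosome in the later assembly, and the counting is not stated to use strand.

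Hes1, the target gene named most often as a readout of Notch, was scarce. Its counts were 61 and 103 in control, 97, 88 and 75 in sh-APP, and 95, 80 and 98 in anti-Abeta, or 1.70 to 2.78 CPM over all libraries. The control libraries were the lowest and the highest of all 8, and the groups overlapped. The log2 fold change was -0.21 ± 0.30 in sh-APP and -0.02 ± 0.30 in anti-Abeta (adjusted p = 0.588 and 0.977, edgeR), and its sign turned in sh-APP without control replicate 2 (0.21). Hes5, another classical Notch target, had 1 count in each of 3 libraries, 1 per group, and 0 in the other 5, where a count of 0 allows up to 3 counts, or 0.0611 to 0.0810 CPM in those libraries. Intervals of this kind cover counting error only. Hes5 overlaps Pank4 in the later assembly. No difference in Hes5 was detectable at this depth.

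Hey1, the third target and a repressor related to Hes1, had 26.3 and 24.5 CPM in control, 36.2, 36.3 and 34.8 in sh-APP, and 34.8, 32.3 and 36.3 in anti-Abeta. Both arms lay above both control libraries and overlapped each other. On the log2 scale Hey1 rose by 0.50 ± 0.10 in sh-APP (adjusted p = 0.000815, edgeR), a call kept in all 19 alternatives. In anti-Abeta it was 0.44 ± 0.10 (adjusted p = 0.00674), lost without control replicate 1 (0.0582) or control replicate 2 (0.0526). Thus 1 of the 3 listed targets rose, while Hes1 passed no test and Hes5 was not tested. Hey2, a gene of the Hey family that is not a member, had 14.2 to 16.9 CPM in control. It had 8.62 to 13.6 CPM in sh-APP, below both control libraries, and 8.88 to 14.9 in anti-Abeta, overlapping control. Hey2 was called against control in neither arm, and the rise of Hey1 does not stand for the Hey family.

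Of the Id factors, Id1 had 59.5 and 61.6 CPM in control, 65.7, 63.9 and 71.4 in sh-APP, and 54.2, 54.1 and 53.1 in anti-Abeta. The groups did not overlap, with anti-Abeta lowest and sh-APP highest. Against control the log2 fold changes were small, 0.15 ± 0.08 in sh-APP and -0.17 ± 0.08 in anti-Abeta (adjusted p = 0.142 and 0.122, edgeR). Id1 passed in sh-APP with upper-quartile factors (0.23, adjusted p = 0.0271) and with library totals alone (0.35, adjusted p = 0.00307), and its value in anti-Abeta was then -0.02 with library totals, so its place relative to control rests on the scaling. Id1 overlaps an unnamed locus in the later assembly.

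Id2, a binding partner of E proteins, fell in both arms. It had 78.5 and 88.8 CPM in control, 54.6, 50.1 and 57.6 in sh-APP, and 48.6, 53.7 and 50.4 in anti-Abeta. Every library of either arm lay below both control libraries, and the arms overlapped. The log2 fold change was -0.63 ± 0.09 in sh-APP and -0.72 ± 0.09 in anti-Abeta (adjusted p = 9.97e-05 and 0.00226, edgeR). Both calls held in all 19 alternatives. In anti-Abeta, Id2 was the only member that passed whichever library was left out, with an adjusted p of at most 0.0481.

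Id3 had 33.5 and 37.1 CPM in control, 51.4, 46.5 and 52.6 in sh-APP, and 36.8, 44.7 and 33.0 in anti-Abeta. The sh-APP libraries lay above all others, while anti-Abeta spread around control and its highest value was in replicate 2. The rise in sh-APP was 0.51 ± 0.12 on the log2 scale (adjusted p = 0.00423, edgeR), lost without the first control library (0.44, adjusted p = 0.0582). The value in anti-Abeta was 0.11 ± 0.12 (adjusted p = 0.534), and -0.03 without anti-Abeta replicate 2.

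Id4, the Id factor best known from neural tissue, had the largest change of the members in sh-APP. It stood at 71.4 and 74.8 CPM in control, 35.3, 28.9 and 39.9 in sh-APP, and 47.6, 61.4 and 33.8 in anti-Abeta. All libraries of both arms lay below control, and anti-Abeta replicate 3 lay within the sh-APP range. The log2 fold change was -1.08 ± 0.19 in sh-APP (adjusted p = 0.000522, edgeR), a call held in all 19 alternatives. In anti-Abeta it was -0.62 ± 0.19 (adjusted p = 0.0316), and this call was lost in 8 of 19 alternatives. Among them it was lost without replicate 1 (0.143) or 2 (0.145) of control and without replicate 1 (0.0694) or 3 (0.0711) of the anti-Abeta group, and with the replicate number as a block (0.0942).

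**Figure D2:**
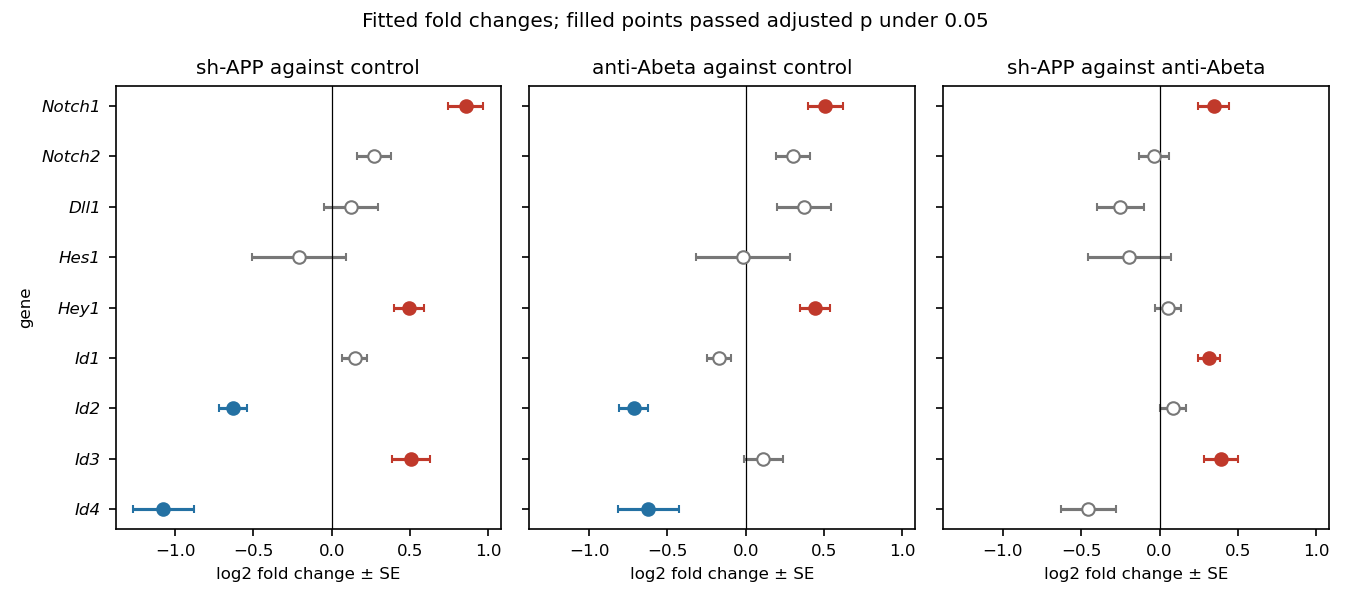
Log2 fold change with SE (horizontal axis) of the 9 tested members in the 3 comparisons. Filled points passed the adjusted threshold (red higher, blue lower), and Id4 at -1.08 and Notch1 at 0.85 in sh-APP against control lie farthest from 0.

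Within each library the Id factors shifted against each other. The count of Id3 reads per Id4 read was 0.470 and 0.496 in control, 1.46, 1.61 and 1.32 in sh-APP, and 0.772, 0.729 and 0.978 in anti-Abeta. The ratio was lowest in control, intermediate in anti-Abeta and highest in sh-APP, and no group overlapped another. It sets a member that rose in sh-APP over one that fell, so this order follows from the levels above. The count of Id1 reads per Id2 read was 0.758 and 0.694 in control, 1.20, 1.27 and 1.241 in sh-APP, and 1.11, 1.01 and 1.05 in anti-Abeta, in the same order and again with no overlap. Id4 reads per Id2 read were 0.909 and 0.843 in control, 0.646, 0.576 and 0.694 in sh-APP, and 0.979, 1.14 and 0.669 in anti-Abeta. Every sh-APP library lay below both control libraries in this ratio, while the anti-Abeta libraries lay on both sides of control. Id3 reads per Id1 read were 0.564 and 0.602 in control, 0.783, 0.728 and 0.736 in sh-APP, and 0.679, 0.827 and 0.622 in anti-Abeta. Here the sh-APP libraries lay within the anti-Abeta range. For Hey1 reads per Hes1 read, anti-Abeta (12.8 to 18.2) overlapped both control (8.81 to 15.5) and sh-APP (16.4 to 20.3).

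**Figure D3:**
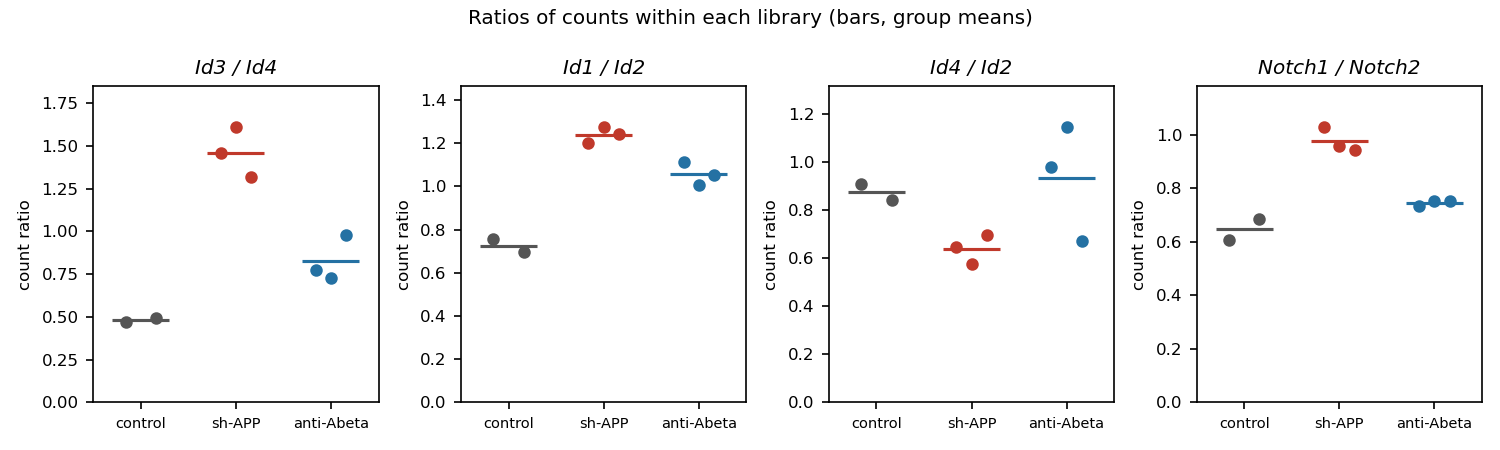
Ratios of counts of paired genes within each library (vertical axis, from 0), by group, with group means as bars. The ratio of Id3 to Id4 separates the 3 groups, and that of Id4 to Id2 spreads from 0.669 to 1.14 in anti-Abeta.

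The arms were then compared with each other, which asks whether the hairpin and the antibody differ in these genes. Of the 9 members, 3 were higher in sh-APP than in anti-Abeta and 0 lower by edgeR's test, where 26.1% of all tested genes were called (10.1% higher, 16% lower). At an unadjusted p under 0.05, 3 were higher and 1 lower, the latter Id4. All tested genes were not counted at that threshold, so this count has nothing to stand beside. With DESeq2, 3 were higher and 1 lower, where 4255 of all tested genes were called (1718 higher, 2537 lower). With limma-voom these were 3 and 0, beside 3722 of all tested genes (1480 higher, 2242 lower). Notch1 differed by 0.35 ± 0.10 on the log2 scale (adjusted p = 0.0223), Id3 by 0.39 ± 0.11 (adjusted p = 0.0204) and Id1 by 0.32 ± 0.07 (adjusted p = 0.00696). For each of these 3 members all sh-APP libraries lay above all anti-Abeta libraries, a separation seen in 41.3% of all tested genes (19.2% higher, 22.1% lower).

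The Id1 difference held in all 19 alternatives. That of Notch1 was lost without replicate 2 (adjusted p = 0.0519) or 3 (0.0934) of sh-APP and without the first anti-Abeta replicate (0.0808). That of Id3 was lost without replicate 1 (0.0633) or 3 (0.0731) of sh-APP, and without replicate 1 (0.0601) or 3 (0.0651) of anti-Abeta. Id4 differed by -0.45 ± 0.18 (adjusted p = 0.0786), and passed without anti-Abeta replicate 3 (-0.65, adjusted p = 0.00626) and with DESeq2 (0.0339). For Hey1 the difference between the arms was 0.05 ± 0.08 (adjusted p = 0.688) and for Id2 0.09 ± 0.08 (adjusted p = 0.481), which does not show that the arms act alike on them.

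Of 53 further genes of the Notch pathway, 51 were in the table and 48 were tested. In sh-APP against control 22 rose, 9 fell and 17 were not called, where 25.8% of the whole tested set rose and 27.9% fell. The median log2 fold change was 0.31 beside 0.03 over all tested genes. The receptor Notch3 went from 7.63 ± 0.02 CPM in control to 13.3 ± 2.41 in sh-APP (log2 fold change 0.80 ± 0.18, adjusted p = 0.00250, edgeR). Among ligands, Dlk1, a Delta-like protein without the usual Notch-binding domain, was the one that rose, from 13.1 to 17.2 CPM in control to 49.7 to 58.3 in sh-APP (1.83 ± 0.17, adjusted p = 6.87e-06). Dner, another atypical ligand, fell by 1.09 ± 0.23, and Jag1, the Jagged ligand common in astrocytes, had -0.46 ± 0.18 (adjusted p = 0.0428), a call lost in 8 of 19 alternatives, among them without control replicate 1 (0.0699) or 2 (0.310).

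The genes that handle and read the receptor moved in both directions in sh-APP. Of 8 proteases 5 rose and 2 fell. Psen2, a catalytic subunit of gamma-secretase, rose by 0.66 ± 0.10, while Adam10, which makes the first cut, fell by 0.68 ± 0.11. Lfng, which adds sugars that alter ligand choice, rose by 0.77 ± 0.14, and Poglut1, which adds the first glucose, fell by 0.74 ± 0.07. Rbpj, the DNA-binding partner of cleaved Notch, fell from 80.5 ± 11.2 to 51.8 ± 2.27 CPM (-0.64 ± 0.09, adjusted p = 0.000114, edgeR). Mib2, a ligand-directed ubiquitin ligase, rose by 0.80 ± 0.10 and Numbl, a relative of the Notch inhibitor Numb, by 0.72 ± 0.10, while the ligase Itch fell by 0.54 ± 0.09. Each of these calls held in all 19 alternatives. Numbl overlaps a ribosomal protein pseudogene in the later assembly, and Dner and Itch overlap unnamed loci.

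The list of the other Hes and Hey family genes and Nrarp had 5 tested genes, of which 1 rose and 1 fell in sh-APP. Whether Notch controls each gene of this list in these cells was not tested. Hes6, which counteracts Hes1, rose from 24.9 ± 1.81 to 45.4 ± 3.81 CPM (0.87 ± 0.12, adjusted p = 7.77e-05, edgeR). Nrarp, a feedback inhibitor that Notch induces, fell from 64.6 ± 7.30 to 45.9 ± 1.71 CPM (-0.49 ± 0.09, adjusted p = 0.000652). In anti-Abeta, Nrarp had 63.0 ± 3.70 CPM (-0.04 ± 0.09, adjusted p = 0.806). Both genes also differed between the arms, Hes6 by 0.54 ± 0.10 and Nrarp by -0.46 ± 0.08 (adjusted p = 0.00349 and 0.00256), and all these calls held in all 19 alternatives. Hes6 overlaps an unnamed locus in the later assembly.

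In anti-Abeta against control, 11 of the 48 Notch genes rose and 5 fell, a share near the 29.2% of all tested genes called there, with a median of 0.22 beside 0.03 for all tested genes. Notch3 rose by 0.72 ± 0.18 (adjusted p = 0.0131, edgeR), a call lost without control replicate 1 (0.106) or 2 (0.0676). Dlk1 rose by 0.72 ± 0.17 (adjusted p = 0.00904), lost without control replicate 2 (0.0911). Rbpj fell by 0.34 ± 0.09 (adjusted p = 0.0193), lost without control replicate 1 (0.229) and with library totals alone (0.151). Jag1 fell by 0.66 ± 0.18 (adjusted p = 0.0179), lost in 4 alternatives, among them without control replicate 1 (0.0739). Poglut1 fell by 0.52 ± 0.07, a call held in all 19 alternatives. The rise of Dlk1 was larger in sh-APP than in anti-Abeta, by 1.11 ± 0.14 (adjusted p = 0.000717).

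**Figure D4:**
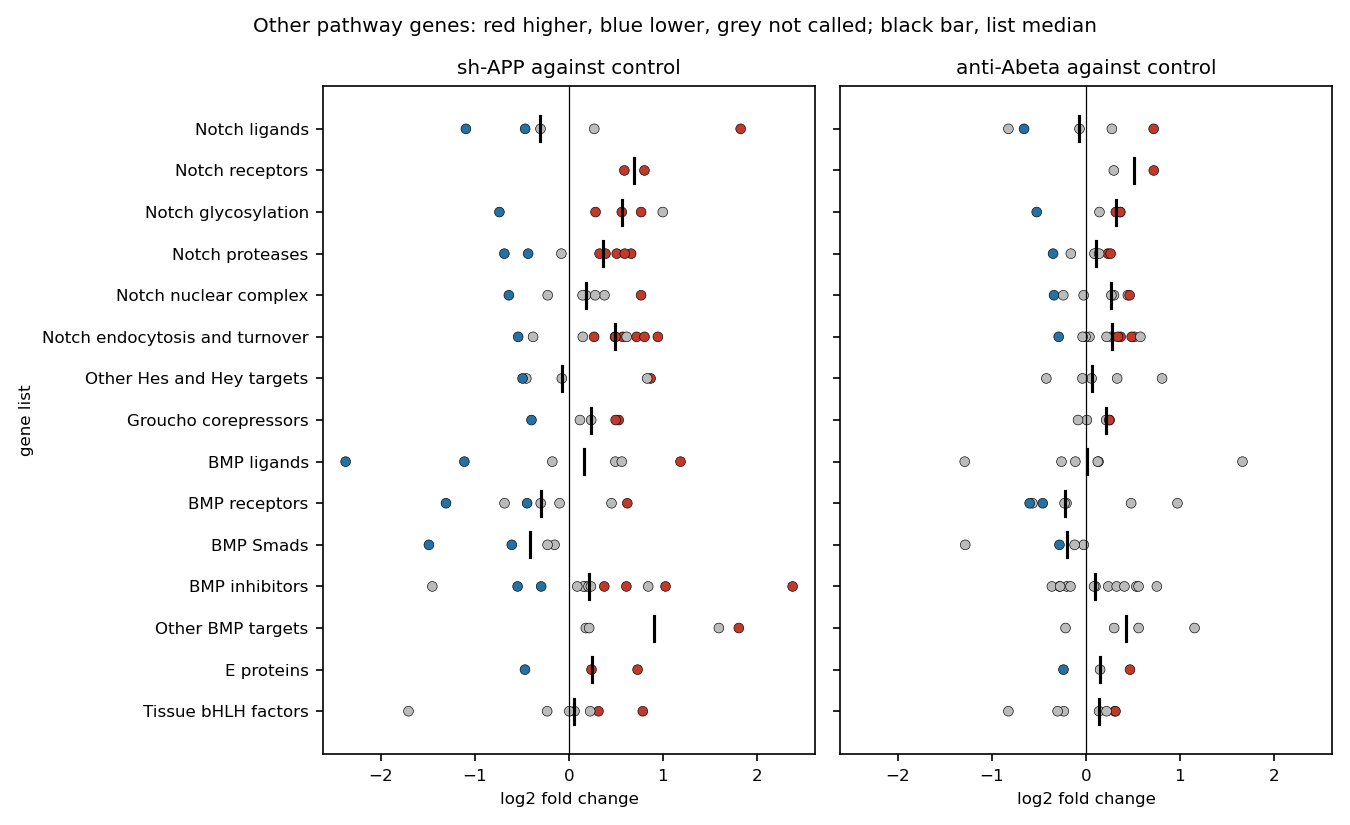
Log2 fold changes (horizontal axis) of the tested genes in 15 lists of Notch, BMP and bHLH genes (rows) in both arms against control. Red points were called higher, blue lower, grey were not called, and the black bar is the list median. Dlk1 is the rightmost Notch ligand at 1.83 in sh-APP.

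Of 40 BMP pathway genes that could bear on the Id factors, 34 were tested, of which 7 rose and 8 fell in sh-APP, a smaller share than the 53.7% of all tested genes. In anti-Abeta 3 fell and the other 31 were not called by edgeR's test, also a smaller share than the 29.2% of all tested genes. The medians were 0.17 and -0.07. In sh-APP the receptor subunits Acvr2a (-1.30 ± 0.13) and Bmpr1a (-0.44 ± 0.10) fell, as did the signal carrier Smad5 (-0.61 ± 0.08) and the ligand Bmp2, from 7.43 ± 0.42 to 3.44 ± 0.79 CPM (-1.11 ± 0.21, adjusted p = 0.000846). These 4 calls held in all 19 alternatives. Of the 7 tested BMP receptors 1 rose and 2 fell in sh-APP, and of the 4 BMP Smads 0 rose and 2 fell. Acvr2b and Smad9 had lower levels and are named outside the rule. The receptor Acvr2b went from 3.43 ± 0.68 CPM in control to 5.28 ± 0.26 in sh-APP, and Smad9 from 1.16 ± 0.49 to 0.41 ± 0.02. Smad9 overlaps an unnamed locus. Acvr2a overlaps Orc4, Bmpr1a overlaps an unnamed locus and the pseudogene Tenol-ps1, and Smad5 overlaps an unnamed locus. The 3 genes that fell in anti-Abeta were Acvr2a (-0.60 ± 0.13), Bmpr1a (-0.46 ± 0.10) and Smad5 (-0.28 ± 0.08), and without control replicate 1 their adjusted p was 0.0977, 0.0739 and 0.160. Smad5 was lost also without control replicate 2 (0.0569) or anti-Abeta replicate 3 (0.0785), with the replicate block (0.0651) and with library totals alone (0.264).

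Known BMP targets other than the Id genes were scarce, and those below were chosen after their values were seen. Smad6, an inhibitory Smad that BMP signals induce, had 15 and 9 counts in control, 74, 70 and 87 in sh-APP, and 28, 12 and 18 in anti-Abeta. The sh-APP libraries stood above all others, and the rise was 2.38 ± 0.53 on the log2 scale (adjusted p = 0.00239, edgeR). Atoh8, a bHLH factor and BMP target, had 35 and 35 counts in control, 165, 119 and 165 in sh-APP, and 35, 80 and 63 in anti-Abeta, a rise of 1.81 ± 0.35 in sh-APP (adjusted p = 0.000890), and it overlaps an unnamed locus. Of the 4 tested genes in the list of other BMP targets, Atoh8 was the 1 called in sh-APP. Msx1, a homeobox factor of that list, had 3.66 ± 0.215 CPM in control and 4.15 ± 0.772 in sh-APP, and its relative Msx2 had 1.85 ± 0.0587 and 2.15 ± 0.797. Bmp6, a BMP ligand, rose by 1.19 ± 0.27 in sh-APP while Bmp3, which is known to oppose other BMPs, fell by 2.37 ± 0.45. In anti-Abeta none of these 4 passed, with adjusted p from 0.255 to 0.748, and each differed between the arms with adjusted p from 0.00390 to 0.00986. Of 13 tested BMP inhibitors, 4 rose and 2 fell in sh-APP.

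The bHLH factors that Id proteins bind were also listed. Tcf3, an E protein and main partner of Id proteins, had 88.9 ± 6.69 CPM in control, 148 ± 3.77 in sh-APP and 123 ± 1.68 in anti-Abeta. The groups did not overlap. It rose by 0.73 ± 0.07 and 0.47 ± 0.07 (adjusted p = 1.08e-05 and 0.00248, edgeR), and both calls held in all 19 alternatives. Tcf12, another E protein, fell by 0.47 ± 0.08 in sh-APP, with -0.24 ± 0.08 in anti-Abeta (adjusted p = 0.0428), a call lost in 11 of 19 alternatives, among them without control replicate 1 (0.260). Olig1 rose by 0.32 ± 0.08 in each arm, in anti-Abeta lost without control replicate 1 (0.133) or anti-Abeta replicate 3 (0.0512). Tcf12 overlaps an unnamed locus.

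The changes of the Id factors stood beside a lower level of proliferation markers. The 10 markers summed to 651 to 697 CPM in control, 295 to 398 in sh-APP and 535 to 652 in anti-Abeta. In sh-APP 9 of the 10 fell, and in anti-Abeta 2 fell and 1 rose. Neuron markers summed to 332 to 358 CPM in control, 152 to 164 in sh-APP and 224 to 290 in anti-Abeta, with 3 of 8 called higher and 3 lower in sh-APP. Map2 made up most of that sum, with 246 ± 25.9 CPM in control and 104 ± 5.90 in sh-APP. Stmn2 went the other way, from 1.43 ± 0.26 to 8.23 ± 1.28 CPM, so the sum does not stand for the list. Whether either list has a part in the changes of the Notch and Id genes was not tested.

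The genes with the most similar profiles were sought over the 8 libraries among 10094 genes of at least 5 CPM, by the root mean square difference of log2 CPM centred on the control mean. For Notch1 these were Sesn2 and Lamb2 (0.05 and 0.06), for Hey1 Sirt7 and Pelo (0.03 and 0.04), for Id2 Phtf2 and Casp4 (0.12 each) and for Id3 S1pr3 (0.09). Id4 was closest to Fam45a and Senp7 (0.10 and 0.11). Among the members themselves, Notch2 and Dll1 were closest to each other (0.13), as were Id2 and Id4 (0.35). Notch1 was closest to Hey1 (0.27), and Hey1 to Notch2 (0.22). The best of 10094 genes comes from a far larger search than the best of 9 members, so these distances cannot be set against those above.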

How the data were processed

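RNA-seq of 8 astrocyte libraries was used. The values the authors deposited are unnormalized counts, checked to be whole numbers, with a symbol for each entry. Per the submitters' processing notes, the genome build was rn6 and the tools included HTSeq 0.11.1, STAR 2.6.0a and Trimmomatic 0.36, besides SAMtools 1.9, FastQC 0.11.7 and DESeq2 1.24.0. The sources used here give neither their settings nor the strandedness. Of 28546 entries, 8853 had no count.

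From the counts, edgeR 4.0.16 in R 4.3.3 was run on all 8 libraries with group as the only term (5 residual degrees of freedom), filterByExpr (minimum count 10, minimum total 15, 14445 genes left), TMM factors and the robust quasi-likelihood test. Adjustment was Benjamini-Hochberg over all tested genes, with a threshold of 0.05. The SE was taken as the size of the log2 fold change over the root of the F statistic. Members, lists, motifs and alternatives were chosen with earlier results of these data known. Named pathway genes are the called ones of at least 5 CPM with the largest change, up to 2 per list and direction, from which the text prints part, and those outside the rule are marked. Alternatives were DESeq2 1.42.0, limma-voom (limma 3.58.1), other scalings and filters, the non-robust spread, only the groups compared, no mitochondrially encoded genes, a replicate block, and leaving out each library. Where this left 1 control library, it was assumed to vary like the other groups. RefSeq tables of GRCr8 gave promoters and overlaps. Some genes that the rule names are not reported here.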

Additional observations from a re-analysis of the deposited data

How the results depend on the processing

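Each result was recomputed in 19 settings, of which 8 leave out a library. Of the members, Notch1, Hey1, Id2 and Id4 in sh-APP, Id2 in anti-Abeta and Id1 between the arms kept their call in all of them. Leaving out libraries gave 4 to 6 called members in sh-APP against control, 1 to 5 in anti-Abeta against control and 1 to 3 between the arms. It gave 5942 to 7954, 439 to 4775 and 2233 to 3582 called genes over all tested genes in the same order, against 7750, 4223 and 3768. Counts over all genes moved by more than 1.5 times in anti-Abeta without control replicate 1 (439, with Id2 the one member called), control replicate 2 (2431) or anti-Abeta replicate 3 (2594), and between the arms without sh-APP replicate 1 (2233). Member counts did so in anti-Abeta without control replicate 1 (1) or 2 (2), and between the arms without sh-APP replicate 3 (1) or anti-Abeta replicate 1 (1).

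Signs turned only in results that passed no test. Hes1 in anti-Abeta was at 0.032 with upper-quartile factors, 0.13 with library totals alone and 0.061 with the replicate block, and -0.34 to 0.38 with libraries left out. Hes1 in sh-APP ranged from -0.51 to 0.21, Id3 in anti-Abeta from -0.032 to 0.21 and Bmp6 in anti-Abeta from -0.18 to 0.52 with libraries left out. Notch2 between the arms was at 0.0015 with upper-quartile factors and 0.018 with library totals alone, and ranged from -0.12 to 0.065 with libraries left out. App in anti-Abeta was at 0.061 with library totals alone. With library totals alone, the share of called genes that were higher went from 48.04% to 62.6% in sh-APP, from 43.4% to 71.7% in anti-Abeta and from 38.5% to 49.5% between the arms, and with upper-quartile factors to 54.5%, 53.9% and 46.8% in the same order. The causes were not tested.

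The replicate numbers of the titles are not stated to pair the libraries. Deviations of same-numbered libraries correlated at -0.01 to 0.11, over 0.1 in 1 of 7 pairs. The highest were between sh-APP and anti-Abeta, 0.105 for replicate 1 and 0.098 for replicate 2, where the crossed pairs had -0.101 and -0.108. Whether same-numbered libraries shared a culture or batch cannot be read from these values. With the replicate block, 5, 3 and 3 members were called in the same 3 comparisons (5, 4 and 3 without it), Id4 in anti-Abeta being lost, and 7328, 3480 and 3675 of all tested genes. Counting error weighs most for Hes5, Hes1 and Dll1, the last with 224 to 396 counts per library. The other members had at least 907 counts in every library.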
